A study of Mus musculus with 6 samples.

Results

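The ATP-binding cassette (ABC) transporter family was examined in the liver of male GHRH-KO mice and control littermates. Members were all genes whose symbol in the array annotation begins with Abca, Abcb, Abcc, Abcd, Abce, Abcf or Abcg followed by a digit, except Abcb11 and Abcd2, which the rule leaves out. This gave 43 of the 18193 genes that had a probe set assigned to 1 gene, and each was read from its probe set with the highest mean over the 6 arrays. Of the 43 members, 36 lay above the intensity filter and were tested, out of 12469 genes tested in all.

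The study asked how a lifelong lack of growth hormone (GH) changes hepatic gene expression. GHRH-KO mice carry a germline disruption of Ghrh, the hypothalamic hormone that drives GH release, in every tissue, so that GH is deficient throughout life and an effect of the missing GH on liver cannot be told apart from the effects of small body size and altered metabolism. There were 3 control mice (replicates 1, 2 and 3) and 3 GHRH-KO mice (replicates 4, 5 and 6), 1 array for each animal, all male, 10 months old, from a closed colony of mixed C57BL6 and 129SV background. Both groups ate the same standard chow and had been fasted for 6 to 8 h before the liver was taken.

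ABC proteins bind ATP through a conserved cassette, and most of them use its hydrolysis to carry a substrate across a membrane. In hepatocytes the pumps of the canalicular membrane load phospholipids, sterols, conjugates and drugs into bile, while related pumps of the sinusoidal membrane return conjugates to the blood. Other members export cholesterol to lipoproteins or serve mitochondria, peroxisomes and lysosomes, and the Abce and Abcf proteins have no membrane domain and act on ribosomes.

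Values are RMA scores (robust multichip average) on the log2 scale, so that a difference of 1 is a doubling, and a change is always GHRH-KO minus control. A probe set's level depends on its probes, so levels of different genes were not set against each other as amounts of RNA. The background level and the intensity filter apply a common cutoff to all probe sets and carry this limit. A gene was called when its adjusted p (limma, Benjamini-Hochberg over all probe sets tested) was under 0.05 and its fold change was above 1.5 or below 0.67. The Ghrh probe set lay at background in all 6 livers, with 4.75 as its highest value, and did not check the genotype, whereas Igf1, a direct GH target in liver, fell by 5.58 (adjusted p = 5.56e-06, limma). The arrays correlated with each other at 0.944 to 0.989. GHRH-KO replicate 5 and control replicate 2 stood furthest from the rest, with deviations from the median over the 6 arrays that spanned interquartile ranges of 0.357 and 0.316 against 0.185 to 0.249 in the other 4 arrays.

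Abcb1b, which encodes a P-glycoprotein that expels drugs and other foreign compounds, was the member that passed both thresholds, and it rose in GHRH-KO liver. All 3 of its control values lay at background, and it passed the intensity filter only through its GHRH-KO values. Abcc4 at 1.87, Abcb1a at 1.56 and Abcc3 at 0.75 on the log2 scale, 3 other exporters, did not pass the adjusted threshold, and next to them stood the lipid transporters Abca5 at 0.59 and Abcg1 at 0.56. Among other exporters of drugs or conjugates, changes were 0.53 for Abcc1, 0.10 for Abcc2, -0.37 for Abcg2 and -0.58 for Abcc10, none called. The most negative change was that of Abca8a, at -0.90, also not called. Changes among the 36 tested members ran from -0.90 to 1.87 with a median of 0.02, beside a median of 0.0033 for all genes tested, and 21 were above 0 and 15 below.

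With limma, 1 of the 36 tested members was called, where 1.76% of all tested genes were. It was called higher, as were 0.786% of all tested genes, and 0 members were called lower, as were 0.97% of all tested genes. A single call, of a gene that entered the test only through its GHRH-KO values, is a result on Abcb1b and gives no reading on the family. An unadjusted p under 0.05 was found for 14 members, against 19.3% of all tested genes, with 6 members higher against a background of 9.15% and 8 lower against a background of 10.1%. The 3 values of each group did not overlap for 15 members, 6 with GHRH-KO above and 9 with GHRH-KO below, and among all tested genes 28.4% had groups apart, 12.7% above and 15.7% below. Of these 15, 14 had an unadjusted p under 0.05, and Abca1 was the other. Whether the family differs from other genes was not tested.

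**Figure D1:**
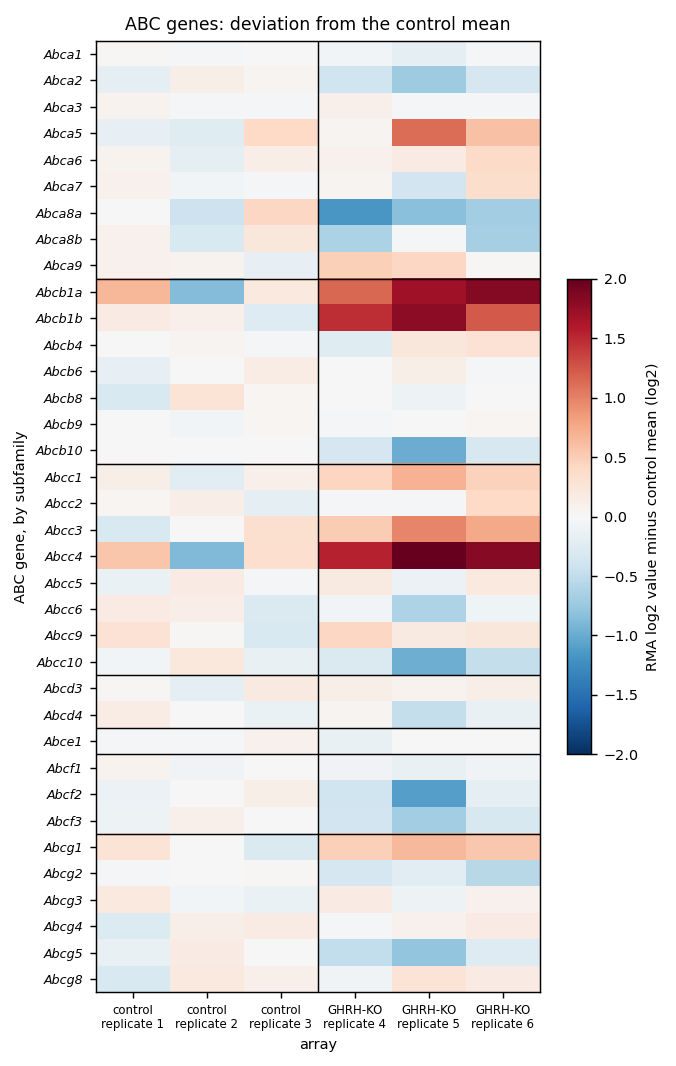
Deviation of each tested ABC gene from its control mean (RMA log2 value, colour scale from -2 to 2) in the 6 arrays, with the genes in rows by subfamily and the 3 control arrays left of the vertical line. The rows of Abcb1a, Abcb1b and Abcc4 are red in all 3 GHRH-KO arrays, and control replicate 2 is blue for Abcb1a and Abcc4.

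The members with an unadjusted p under 0.05 were not spread evenly over the arrays. In 6 of the 8 that were lower, GHRH-KO replicate 5 held the lowest of the 6 values, and in 3 of the 6 that were higher control replicate 2 did. Without GHRH-KO replicate 5 the 8 lower members still had changes below 0, from -0.93 to -0.29, and without control replicate 2 the 6 higher members still had changes above 0, from 0.42 to 1.55. The part of these arrays in the single results is given below as the value without them.

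**Figure D2:**
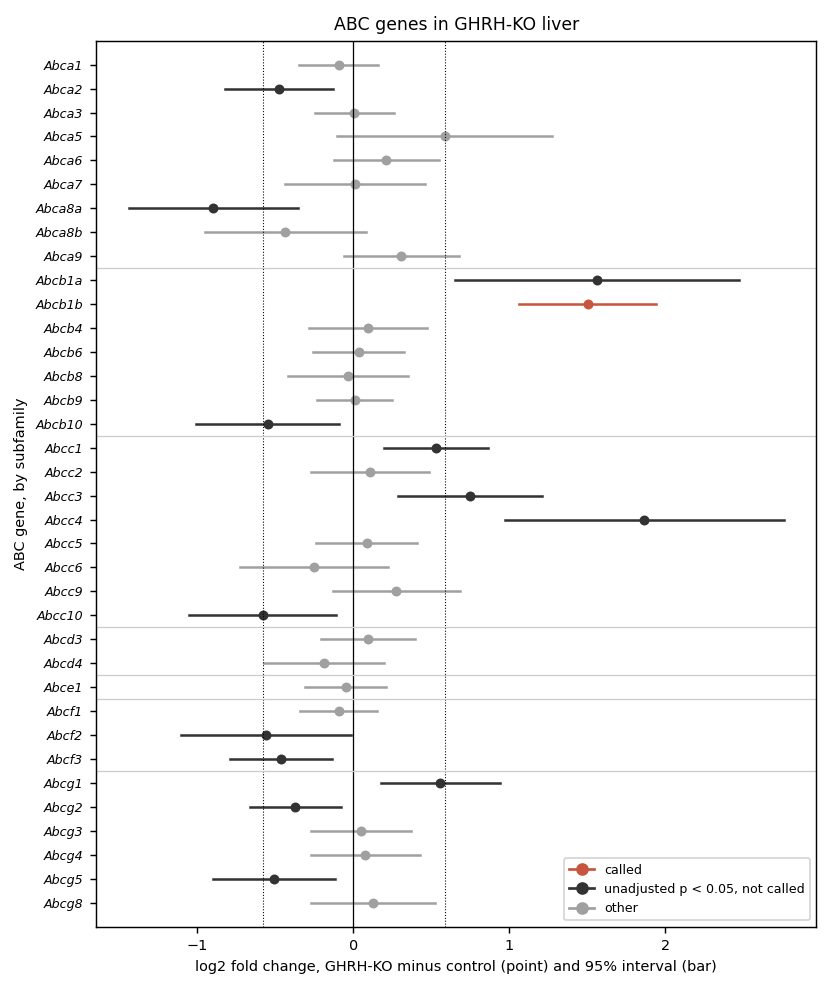
Log2 fold change of each of the 36 tested ABC genes, GHRH-KO minus control (point), with its 95% interval from limma (bar), with dotted lines at the fold thresholds. Abcb1b is called, with its fitted change at 1.5 and its control values at background, and the intervals of Abcc4, Abcb1a and Abcc3 also lie above 0.

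The genes Abcb1a, Abcb1b and Abcb4 lie next to each other on chromosome 5 with no other protein-coding gene between them. Their promoters are shown because the changes of these neighbours are set side by side here. The sequences are the 250 bases before the RefSeq start of each gene (GRCm38.p6, plus strand), at chr5:8566841-8567090 for Abcb1a, chr5:8797897-8798146 for Abcb1b and chr5:8893471-8893720 for Abcb4. Capitals would mark a match to one of 3 motifs searched on both strands, TTCNNNGAA (bound by STAT5, the factor that carries the GH signal), TGACNNNGC (the core of the antioxidant response element) and AGGTCA (a hexamer that many nuclear receptors recognise), and none of the 3 stretches held one.
Abcb1a: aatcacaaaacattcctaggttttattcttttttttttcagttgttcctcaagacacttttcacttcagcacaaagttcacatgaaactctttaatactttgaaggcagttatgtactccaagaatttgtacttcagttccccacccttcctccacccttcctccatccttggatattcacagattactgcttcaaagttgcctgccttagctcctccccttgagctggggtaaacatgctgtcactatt
Abcb1b: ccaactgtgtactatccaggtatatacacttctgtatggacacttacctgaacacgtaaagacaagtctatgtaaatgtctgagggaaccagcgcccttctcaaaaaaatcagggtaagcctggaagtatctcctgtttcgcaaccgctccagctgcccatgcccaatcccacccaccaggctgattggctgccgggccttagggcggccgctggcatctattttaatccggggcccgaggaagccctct
Abcb4: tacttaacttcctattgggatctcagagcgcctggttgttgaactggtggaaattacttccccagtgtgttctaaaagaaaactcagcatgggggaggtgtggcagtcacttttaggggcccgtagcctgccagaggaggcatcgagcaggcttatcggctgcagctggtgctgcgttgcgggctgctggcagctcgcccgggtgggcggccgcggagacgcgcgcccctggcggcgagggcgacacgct
The share of G and C was 40.4% for Abcb1a, 52.8% for Abcb1b and 61.6% for Abcb4.

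Abcb1b gave 4.20, 4.14 and 3.77 in the control livers, in the order of replicates 1 to 3, against 5.52, 5.83 and 5.26 in the GHRH-KO livers, in the order of replicates 4 to 6, and later values follow the same order. All 3 control values lay at the level of background and all 3 GHRH-KO values above it, and the groups were far apart. Abcb1b passed the intensity filter only through its GHRH-KO values. Its mean over the 6 arrays was 4.79, while Abcc8 with a mean of 4.54 lay below the filter. In the fit without a filter Abcb1b was also called (adjusted p = 0.015, limma). The means were 4.04 ± 0.23 and 5.54 ± 0.28 (SD, n = 3 each), and the change of 1.5 (standard error 0.19, adjusted p = 0.0155, limma) stood for a rise of at least 1.73-fold, because the control mean is a bound (the highest Ghrh value, 4.75, was taken as background). The call was lost without control replicate 2 (change 1.55, adjusted p = 0.0657, limma) and without control replicate 3 (1.37, adjusted p = 0.0583), while the change itself stayed between 1.35 and 1.64 whichever array was left out. In whole liver, more cells that carry a transcript and more RNA per cell cannot be told apart.

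Abcb1a, the other P-glycoprotein gene of the mouse, read 6.57, 5.03 and 6.10 in the controls and 7.05, 7.59 and 7.74 in the GHRH-KO livers. The groups did not overlap, but control replicate 2 lay more than 1 log2 unit under the other controls. The change was 1.56 (standard error 0.39, adjusted p = 0.109, limma, 95% interval 0.65 to 2.47), or 2.95-fold, and without control replicate 2 it was 1.13. A second probe set of Abcb1a read 5.30, 3.81 and 5.04 in the controls and 6.20, 6.42 and 7.02 in the GHRH-KO livers. Control replicate 2 was again the lowest, and it was the only control value at background, while control replicates 1 and 3 lay above it. The fitted change of 1.83 (adjusted p = 0.0841, limma) rests in part on that array, and no bound is given.

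Abcb4 carries phosphatidylcholine across the canalicular membrane into bile. It read 11.56, 11.62 and 11.52 in the controls and 11.33, 11.79 and 11.86 in the GHRH-KO livers, so the groups overlapped. The change was 0.10, with a 95% interval of -0.28 to 0.47 and an adjusted p of 0.782 (limma), and a change as large as that of its neighbours lies outside this interval.

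Abcc4 exports bile salts, conjugates and cyclic nucleotides over the sinusoidal membrane to the blood, and its fitted change was 1.87. Its promoters are shown because each of its RefSeq starts has a match to the antioxidant response core, in capitals, and the gene is read on the minus strand. The windows cover the 250 bases before each start, chr14:118676932-118677181 with the match 23 bases before the start and chr14:118706220-118706469 with the match 25 bases before it (GRCm38.p6, minus strand, RefSeq). The first window had 47.6% G and C and the second 72.0%.
Abcc4 first start: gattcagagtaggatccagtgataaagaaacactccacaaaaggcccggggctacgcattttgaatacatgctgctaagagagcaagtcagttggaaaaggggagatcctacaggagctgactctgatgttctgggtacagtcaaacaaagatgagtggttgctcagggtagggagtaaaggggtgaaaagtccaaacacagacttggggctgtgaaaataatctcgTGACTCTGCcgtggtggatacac
Abcc4 second start: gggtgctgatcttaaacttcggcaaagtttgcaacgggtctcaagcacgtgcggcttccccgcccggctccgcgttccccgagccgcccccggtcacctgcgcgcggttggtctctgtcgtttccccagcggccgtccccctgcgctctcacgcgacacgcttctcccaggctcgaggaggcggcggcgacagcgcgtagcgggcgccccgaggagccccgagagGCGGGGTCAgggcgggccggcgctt
The second start also had a match to TTCNNNGAA that began at base 3, counted from 1 at the start, outside the stretch shown.

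Abcc4 read 6.49, 5.07 and 6.27 in the controls and 7.48, 8.19 and 7.77 in the GHRH-KO livers. Every GHRH-KO value lay above every control value, and control replicate 2 was again the lowest array. The change was 1.87 (standard error 0.38, adjusted p = 0.0708, limma, 95% interval 0.97 to 2.76), or 3.65-fold, which did not pass the threshold, and without control replicate 2 it was 1.43 (adjusted p = 0.0852). When limma gave each array a weight by how well it followed its group, Abcc4 (change 1.61, adjusted p = 0.0246) and Abcb1a (1.52, adjusted p = 0.0407) were called beside Abcb1b. Calls rose over the whole series in that fit, to 248 genes higher and 288 lower of 12469 tested. The fit without weights called 98 higher and 121 lower.

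Abcc3, another sinusoidal pump, which returns glucuronides and bile salts to the blood, read 10.10, 10.40 and 10.73 in the controls and 10.92, 11.38 and 11.17 in the GHRH-KO livers. The groups lay close together without overlap. The change was 0.75 (standard error 0.20, adjusted p = 0.123, limma, 95% interval 0.29 to 1.21), or 1.68-fold.

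Abcc1, which exports glutathione conjugates in many tissues, read 4.95, 4.62 and 4.93 in the controls and 5.26, 5.53 and 5.29 in the GHRH-KO livers. The control values were near background, and the groups did not overlap. The change was 0.53 (standard error 0.14, adjusted p = 0.130, limma), or 0.42 without control replicate 2.

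Abcc5, an exporter of cyclic nucleotides and related anions, had a change of 0.09 (adjusted p = 0.772, limma). Abcc6, which lets ATP leave hepatocytes and is mutated in pseudoxanthoma elasticum, read 10.30, 10.26 and 9.84 in the controls and 10.08, 9.52 and 10.05 in the GHRH-KO livers. These groups overlapped, and the change was -0.25 (adjusted p = 0.536, limma, 95% interval -0.73 to 0.22), with -0.07 without GHRH-KO replicate 5, -0.17 without control replicate 1 and -0.40 without control replicate 3. Abcc10, an exporter of lipophilic anions, read 5.89, 6.16 and 5.80 in the controls and 5.66, 4.97 and 5.47 in the GHRH-KO livers. All GHRH-KO values were lower, most of all replicate 5. The change was -0.58 (standard error 0.20, adjusted p = 0.200, limma), or -0.38 without that array. Abcc9, a regulatory subunit of ATP-sensitive potassium channels, had a change of 0.28 (adjusted p = 0.429, limma), with 0.42 without control replicate 1 and 0.12 without control replicate 3.

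**Figure D3:**
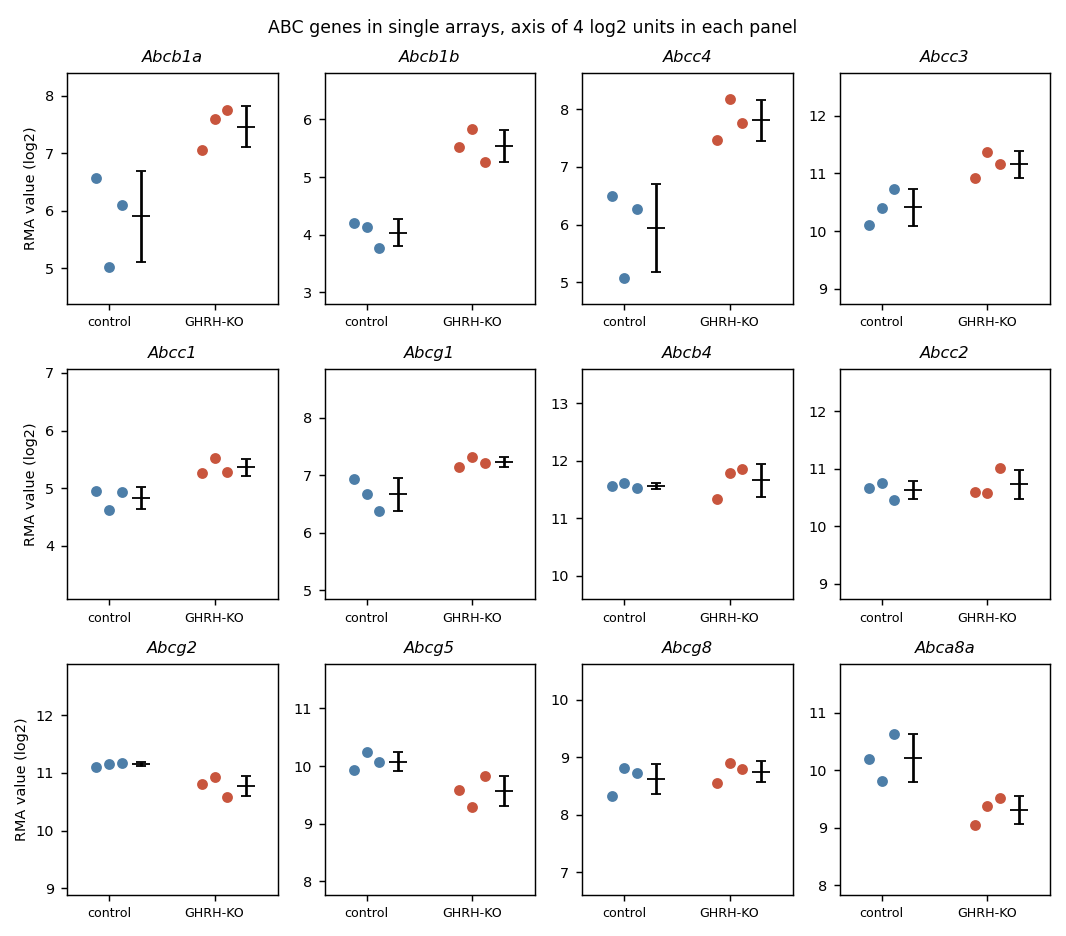
RMA values (log2) of 12 ABC genes in each array, control in blue and GHRH-KO in red, with the group mean and SD beside the points (n = 3 each), on axes that all span 4 log2 units. The groups lie apart for Abcb1a, Abcb1b, Abcc4, Abcc3, Abcc1, Abcg1, Abcg2, Abcg5 and Abca8a, and overlap for Abcb4, Abcc2 and Abcg8.

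The other pumps that load bile had changes from -0.51 to 0.12. Abcc2, the canalicular pump for bilirubin glucuronides and glutathione conjugates, read 10.67, 10.75 and 10.45 in the controls and 10.59, 10.58 and 11.02 in the GHRH-KO livers. The groups overlapped, and the change was 0.10 (adjusted p = 0.760, limma, 95% interval -0.27 to 0.48). Abcg2, a canalicular pump for drugs, sulfates and urate, read 11.11, 11.16 and 11.18 in the controls and 10.81, 10.93 and 10.59 in the GHRH-KO livers. The control values were nearly identical and all GHRH-KO values lay below them, and the change was -0.37 (standard error 0.12, adjusted p = 0.188, limma, 95% interval -0.66 to -0.08).

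Abcg5 and Abcg8 form a heterodimer that secretes cholesterol and plant sterols into bile, and neither protein works without the other. The genes point away from each other on chromosome 17, with starts at positions 110 bases apart, and the 109 bases that lie between are shown because both genes would be read from this stretch (chr17:84683012-84683120, GRCm38.p6, plus strand, RefSeq). It held no match to the 3 motifs and had 45.9% G and C.
Abcg5 and Abcg8: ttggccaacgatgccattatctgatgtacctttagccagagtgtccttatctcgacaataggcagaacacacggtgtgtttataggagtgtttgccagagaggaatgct
RefSeq lists another start of Abcg8, 6709 bases from that of Abcg5. Abcg5 read 9.93, 10.24 and 10.07 in the controls and 9.59, 9.29 and 9.82 in the GHRH-KO livers, without overlap. The change was -0.51 (standard error 0.17, adjusted p = 0.182, limma), or -0.37 without GHRH-KO replicate 5. Abcg8 read 8.32, 8.81 and 8.73 in the controls and 8.55, 8.90 and 8.79 in the GHRH-KO livers. These groups overlapped, and the change was 0.12 (adjusted p = 0.725, limma, 95% interval -0.27 to 0.52).

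Changes were then set against each other within the 3 clusters of neighbouring members, as the difference of the 2 genes in each array. There were 8 pairs, and with 3 arrays against 3 the exact two-sided permutation test cannot give a p below 0.1, so no pair could pass. The pairs that hold Abcb1b are not read, because its control values lay at background and its change is a bound. The change of Abcb1a exceeded that of Abcb4 by 1.47, without overlap between the groups. Groups apart always give the smallest p the design allows, so that p adds nothing to it (exact permutation p = 0.1, 0.2 after adjustment over the 8 pairs). The SD of this difference was 0.82 in the controls, where Abcb1a was lowest in replicate 2, and 0.08 in GHRH-KO. The change of Abcg5 was -0.63 relative to that of Abcg8, also without overlap (exact permutation p = 0.1, adjusted 0.2).

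**Figure D4:**
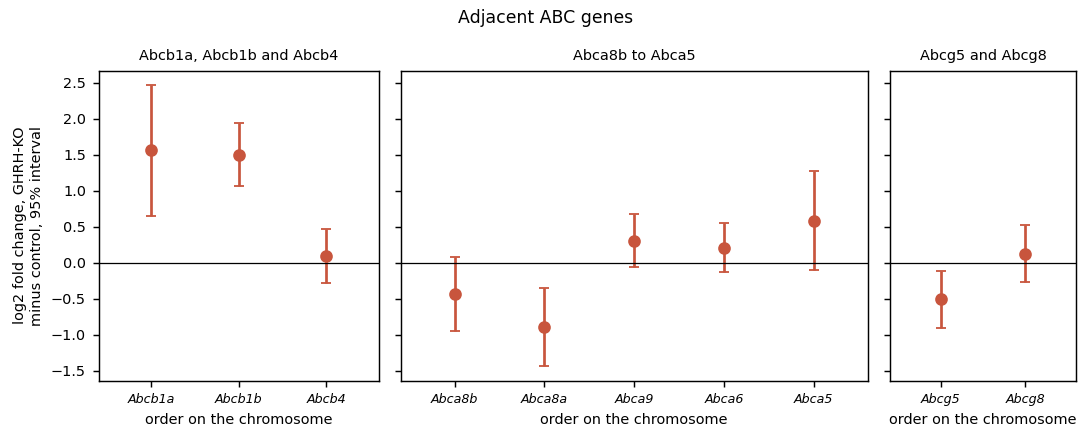
Log2 fold change, GHRH-KO minus control, with its 95% interval from limma, of the ABC genes that are neighbours, in their order on the chromosome. Abcb1a (1.56) lies above Abcb4 (0.10), the point of Abcb1b (1.5) was fitted with control values at background, Abca8b (-0.44) and Abca8a (-0.90) lie below Abca9, Abca6 and Abca5, and Abcg5 (-0.51) lies below Abcg8 (0.12).

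The largest cluster holds Abca8b, Abca8a, Abca9, Abca6 and Abca5 on chromosome 11, in this order and with no other protein-coding gene between them. Abca8a read 10.20, 9.80 and 10.63 in the controls and 9.05, 9.38 and 9.52 in the GHRH-KO livers. The groups did not overlap, and the change was -0.90 (standard error 0.23, adjusted p = 0.117, limma), or 1.86-fold lower. Abca8b read 8.01, 7.61 and 8.14 in the controls and 7.29, 7.90 and 7.26 in the GHRH-KO livers. Replicate 5 lay among the controls, and the change was -0.44 (adjusted p = 0.344, limma). Abca9 and Abca6 had changes of 0.31 and 0.21 (for Abca6 0.11 without control replicate 2 and 0.12 without GHRH-KO replicate 6), and Abca5, a lysosomal member, had 0.59 with GHRH-KO replicate 4 (7.31) among the controls (7.02 to 7.66), none of them called. Without GHRH-KO replicate 5 the change of Abca5 was 0.32. The change of Abca8a was -1.21 relative to that of its neighbour Abca9, without overlap (exact permutation p = 0.1, adjusted 0.2), while the other 3 pairs of this cluster overlapped (exact permutation p from 0.3 to 0.8).

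Among the transporters of cellular lipids, Abca1 hands cholesterol and phospholipids to apolipoprotein A-I, the step that starts a high density lipoprotein. It read 11.64, 11.59 and 11.63 in the controls and 11.56, 11.43 and 11.59 in the GHRH-KO livers. The lowest control value and the highest GHRH-KO value were the same after rounding, and the change was -0.10 (adjusted p = 0.663, limma). Abcg1, which passes cholesterol on to mature high density lipoprotein, read 6.94, 6.68 and 6.38 in the controls and 7.14, 7.32 and 7.21 in the GHRH-KO livers. All GHRH-KO values were higher, by a mean of 0.56 (standard error 0.16, adjusted p = 0.15, limma), or 1.47-fold.

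Abca2, a lysosomal lipid transporter best known from brain, read 6.47, 6.76 and 6.70 in the controls and 6.25, 5.94 and 6.31 in the GHRH-KO livers. All GHRH-KO values were lower, and the change was -0.48 (standard error 0.15, adjusted p = 0.165, limma), or -0.36 without replicate 5. Abca3, which fills the surfactant bodies of lung cells, and Abca7, a relative of Abca1, both had changes of 0.01. Abcg4, which moves sterols in brain, had 0.08 and Abcg3, a rodent gene, 0.05. In the whole Abca subfamily 9 of 14 members were tested, none was called, 2 were lower at an unadjusted p under 0.05, and the median change was 0.01.

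Of the Abcb members of mitochondria and lysosomes, 1 had groups apart in its brightest probe set, where 28.4% of all tested genes did. Abcb10, a protein of the inner mitochondrial membrane with a role in heme synthesis, read 7.82, 7.81 and 7.81 in the controls and 7.48, 6.82 and 7.50 in the GHRH-KO livers. The controls agreed within 0.02, and GHRH-KO replicate 5 was the lowest by far. The change was -0.55 (standard error 0.19, adjusted p = 0.209, limma), or -0.33 without replicate 5. Abcb6, a porphyrin transporter, Abcb8, another mitochondrial member, and Abcb9, which brings peptides into lysosomes, had changes of 0.03, -0.03 and 0.01. None of these 3 was called, and all changed sign under some of the alternatives. A second tested probe set of Abcb8 had a change of -0.45 (adjusted p = 0.2915, limma), with groups apart and GHRH-KO replicate 5 (5.77) the lowest.

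In peroxisomes, Abcd3 takes up branched-chain fatty acids and bile acid precursors. It read 12.56, 12.34 and 12.71 in the controls and 12.65, 12.60 and 12.66 in the GHRH-KO livers, within the range of the controls, and the change was 0.09 (adjusted p = 0.728, limma). Abcd4, which helps to bring cobalamin out of lysosomes, had a change of -0.19 (adjusted p = 0.566, limma).

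Among the soluble members, Abcf2 and Abcf3 were lower in all GHRH-KO livers than in any control, as were 15.7% of all tested genes. Abcf3, a relative of the yeast protein that helps to sense amino acid shortage on ribosomes, read 8.45, 8.66 and 8.56 in the controls and 8.18, 7.86 and 8.24 in the GHRH-KO livers. The groups did not overlap, and the change was -0.46 (standard error 0.14, adjusted p = 0.158, limma), or -0.35 without replicate 5. Other tested probe sets of Abcf3 had changes of -0.19 and -0.11, and for the latter the groups overlapped. Abcf2 read 7.85, 7.96 and 8.08 in the controls and 7.57, 6.87 and 7.77 in the GHRH-KO livers. Its groups lay close together apart from replicate 5, and the change was -0.56 (standard error 0.23, adjusted p = 0.267, limma), or -0.29 without that array. Abcf1, which supports the start of translation, had a change of -0.09 (adjusted p = 0.662, limma), so that all 3 Abcf genes had changes below 0 and none was called. Abce1 splits ribosomes after a stop codon so that they can be used again. It read 9.50, 9.50 and 9.62 in the controls and 9.39, 9.53 and 9.54 in the GHRH-KO livers, a change of -0.05 (adjusted p = 0.844, limma).

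By subfamily, the Abcc genes had the most members that were higher at an unadjusted p under 0.05, 3 of 8 tested, with 1 lower and a median change of 0.19. The Abcb genes had 2 higher and 1 lower among 7, with a median of 0.03. The Abcg genes had 1 higher and 2 lower among 6, with a median of 0.06, and the Abcf genes 0 higher and 2 lower among 3, with a median of -0.46. Neither of the 2 Abcd genes nor Abce1 had such a p. Over all genes tested the shares were 9.15% higher and 10.1% lower.

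The 7 members below the intensity filter were Abca4, Abca12, Abca13, Abca14, Abca16, Abcc8 and Abcc12, and each had both group means at or under 4.75. They include genes known from other tissues, such as Abca4 of the retina, Abca12 of the epidermis and Abcc8 of the pancreatic beta cell. No change is given for them, since both groups lay at background. ABC proteins with other symbols were read as well, and Tap1 and Tap2, which carry peptides to MHC class I molecules, had changes of -0.37 and -0.68, neither called (adjusted p = 0.657 and 0.319, limma), while Cftr lay at background.

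Genes that work with the ABC family were followed in 7 lists of 107 genes, of which 94 were tested. None was called in either direction (0.786% of all tested genes were called higher and 0.97% lower), unadjusted p-values under 0.05 were found for 8 genes that were higher and 8 that were lower (against 9.15% and 10.1%), and the median change was -0.03. The lists held the regulators of ABC genes, the partners of the export pumps, cholesterol efflux, peptide loading, peroxisomal oxidation, iron-sulfur cluster and heme synthesis, and translation.

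**Figure D5:**
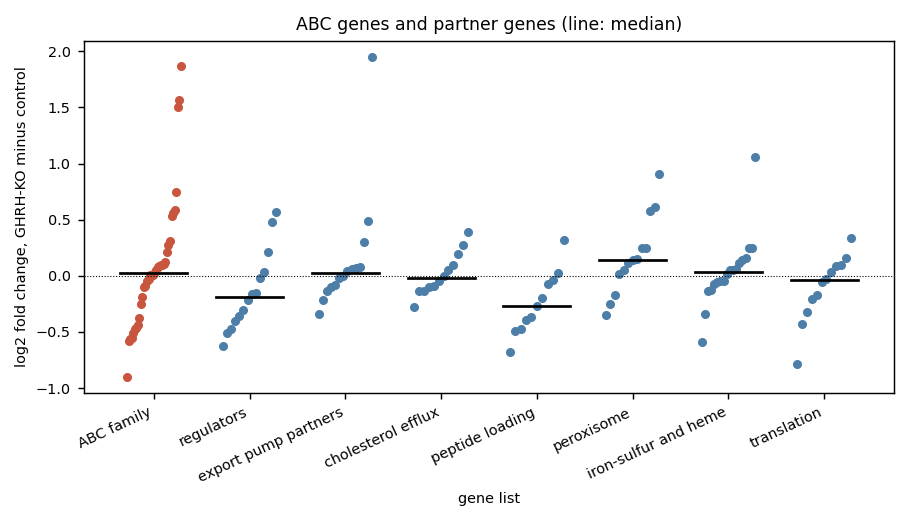
Log2 fold change, GHRH-KO minus control, of each tested ABC gene (red) and of each tested gene in the 7 partner lists (blue), with the median of each list as a line. The medians run from -0.27 (peptide loading) to 0.14 (peroxisome), and the topmost point of the pump partners is Pctp at 1.95.

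Of the pump partners, 14 were tested, and 1 was higher at an unadjusted p under 0.05. That gene, Pctp, encodes a protein that carries phosphatidylcholine through the cytosol, and it read 7.44, 6.00 and 7.39 in the controls and 8.71, 8.96 and 9.0 in the GHRH-KO livers. The groups were far apart, with control replicate 2 the lowest array, as for Abcb1a and Abcc4. The change was 1.95 (standard error 0.37, adjusted p = 0.0605, limma), which did not pass the threshold. Without control replicate 2 Pctp was called higher (1.48, adjusted p = 0.0163, limma), and the mean of its probe sets gave a change of 0.89 (adjusted p = 0.118). Scaffolds of the canalicular membrane such as Slc9a3r1 (0.06), Rdx (0.07) and Pdzk1 (0.05) had small changes.

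Of the 14 regulators tested, an unadjusted p under 0.05 was found for 2 that were higher and 3 that were lower, with a median change of -0.19. Stat5b, the main transcription factor of GH signalling in liver, had a change of 0.57 (adjusted p = 0.143, limma), and Ppara, the receptor that governs fatty acid oxidation in the fast, had 0.48, or 0.32 without control replicate 1. On the other side stood Nr0b2, a repressor that is a target of the bile acid receptor, at -0.63 (adjusted p = 0.108, limma), Ahr, the dioxin receptor, at -0.51 (-0.28 without control replicate 1), and Nr1i2, the pregnane receptor for foreign compounds, at -0.41. Nfe2l2, which encodes NRF2, the factor that binds antioxidant response elements, had 0.21, and its inhibitor Keap1 -0.36. Levels of these transcripts say nothing of the activity of the proteins.

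In the peroxisomal list 3 of 13 tested genes were higher at an unadjusted p under 0.05 and 0 lower. These were the beta oxidation enzymes Ehhadh at 0.90 and Acaa1a at 0.62, and Crat, a carnitine acyltransferase, at 0.58 (adjusted p = 0.140, 0.151 and 0.148, limma). In the iron-sulfur and heme list, Alas1, the rate-limiting enzyme of heme synthesis, read 11.15, 11.06 and 10.44 in the controls and 11.88, 12.13 and 11.80 in the GHRH-KO livers, a change of 1.06 (adjusted p = 0.0643, limma) with the groups apart. Ppox, a later enzyme of that route, had -0.59 and Ciapin1, which serves cytosolic iron-sulfur assembly, -0.34, and the list of 18 tested genes had a median change of 0.03.

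In the translation list 3 of 12 tested genes were lower at an unadjusted p under 0.05. Pelo and Hbs1l, which free stalled ribosomes before Abce1 splits them, had changes of -0.79 (adjusted p = 0.0846, limma) and -0.32, and Gcn1, an activator of the amino acid sensor Gcn2, had -0.43. The cholesterol efflux list had 1 of 12 tested genes with such a p, Mylip at 0.39, which marks the low density lipoprotein receptor for breakdown. None of the 11 genes of peptide loading had such a p, and 9 of the 11 had changes below 0.

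Markers of hepatocytes overlapped between the groups, with a mean of 12.75 to 13.04 in the controls and 12.87 to 13.06 in the GHRH-KO livers over 8 genes. Stellate cell markers had changes above 0 in 8 of 8 genes, and their mean level ran from 7.40 to 8.10 in the controls and from 7.84 to 8.39 in the GHRH-KO livers. The changes ran from 0.01 for Col1a1 to 1.16 for Col3a1, none called. Of the 8, 1 had groups apart, Pdgfrb at 0.90, where 28.4% of all tested genes did. Lymphocyte markers had mean levels of 5.15 to 5.39 and of 5.48 to 5.61 over 5 genes, with Cd79a and Nkg7 at background, but over the 3 tested genes the ranges overlapped (5.92 to 6.54 against 6.48 to 6.69), and Cd3d and Cd3e, which mark T cells, had changes of 0.09 and 0.17 beside 0.92 for Ptprc, a gene of all leukocytes, none called. Kupffer cell markers overlapped (7.28 to 8.65 against 7.35 to 8.62), as did endothelial markers (7.40 to 7.76 against 7.53 to 7.61) and cholangiocyte markers (4.51 to 5.12 against 4.59 to 4.72, with Krt7 and Cftr at background). Single Kupffer markers went both ways, 6 above 0 and 2 below, from -1.26 for Marco to 1.19 for Cd68, none called. Of the 3 cholangiocyte genes tested 1 was above 0 and 2 below, with Sox9 at -0.54, and Krt19 read 7.04 in control replicate 1. Of the erythroid list 2 genes had a probe set, and their mean was 7.19 to 7.59 in the controls and 6.64 to 6.73 in the GHRH-KO livers, with Hba-a1 at background. The other, Alas2, the erythroid form of the first enzyme of heme synthesis, fell by 1.36 (adjusted p = 0.0219, limma). The part of these cell types in the values of the ABC genes was not tested.

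RefSeq promoters of 300 bases were at hand for 34 of the 43 members, in 41 windows that run from 250 bases before to 50 bases after a start. The STAT5 motif TTCNNNGAA was found in 2 of these windows (4.88%), those of Abcc4 and Abcc5, and in 8.3% of all 32851 promoters. The core TGACNNNGC was found in 7 windows (17.1%), of Abca8b, Abcb1a, Abcc2, Abcc4 and Abcc10, and in 12.4% of all promoters. The hexamer AGGTCA was found in 6 windows (14.6%), of Abcb6, Abcc2, Abcc10 and Abcg2, and in 16.3% of all promoters. The match of Abcb1a to TGACNNNGC began at base 27, counted in the same way, and Abcb1b had a match to none of the 3. These are matches of letters, the motifs may overlap, and nothing was measured at these places here.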

How the data were processed

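Liver RNA of 3 control and 3 GHRH-KO mice was hybridized to Affymetrix mouse arrays, and the authors deposited 1 log2 expression value per probe set and array, made by RMA (background correction, quantile normalization and summary of the probes). The RMA software version is not given in the sources used here. Groups came from the sample titles. After 64 control probe sets were left out, tests were run on the 25145 of 45101 probe sets that were brightest on average, a number that the study's methods give for their own filter. In the annotation 34945 probe sets had 1 gene, 932 several and 9160 were not listed, and only those with 1 gene were named.

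The difference GHRH-KO minus control came from lmFit and eBayes (limma 3.58.1, R 4.3.3, two-sided, no covariates), and p was adjusted by Benjamini-Hochberg over all probe sets tested. The test was checked on simulated data. A change is a lower bound where all values of the lower group are at or under 4.75, which was decided once the values were known. Neighbouring genes were compared by exact permutation tests. The members, gene lists and alternatives were chosen with earlier results of these data known. Given in full are called members, those with an unadjusted p under 0.05, the 2 of each subfamily with the largest change and 15 genes with known roles in liver, and of the partner lists up to 4 genes a list with such a p. Some items are not reported here. The 6 arrays limit the precision, p-values measure the spread between animals, and protein sequences were not used here. Promoters came from RefSeq (GRCm38.p6). Python 3.11.15 with matplotlib 3.10.9 made the figures.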

Additional observations from a re-analysis of the deposited data

How the results depend on the processing

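The call of Abcb1b was kept in 4 of 6 fits that left out 1 array and in 10 of the 11 other alternatives in which it was tested. Not all of the 11 were a check on it, because Abcb1b had 1 tested probe set. Dropping the fold threshold and taking the probe set of lowest p reused the main fit and could not lose the call. The mean of probe sets and the fit without probe sets that bind several transcripts used the same Abcb1b values. The count of ABC genes called higher, 1, became 0 under the stricter filter of 15000 probe sets (Abcb1b lay below it) and with control replicate 2 and GHRH-KO replicate 5 both left out, became 3 with array weights, and ran from 0 to 1 with 1 array left out. The count called lower was 0 throughout, and the family median stayed between -0.01 and 0.05. The count of partner genes called higher, 0, became 1 with the probe set of lowest p (Crat), with the mean of a gene's probe sets (Alas1), without probe sets that bind several transcripts (Crat), with the trended robust fit (Alas1) and with both arrays left out (Pctp), became 2 with array weights (Alas1 and Pctp), and ran from 0 to 1 with 1 array left out. The count of partner genes called lower, 0, became 1 with array weights (Ppox). Calls among all genes moved too, from 98 higher and 121 lower of 12469 in the main fit. Array weights gave 248 and 288, and both arrays left out 42 and 64. There were 36 and 46 without control replicate 2, and 41 and 46 without control replicate 3. The probe set of lowest p gave 128 and 153. The mean of probe sets gave 116 and 159, and the trended robust fit 117 and 144. Without probe sets that bind several transcripts there were 88 and 111 of 10764. The causes were not tested.

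Of 637 recomputed changes of single ABC genes, 38 changed sign, in 13 genes whose change was at most 0.28 in size, and none of the 14 members with an unadjusted p under 0.05 did. Not all of the 637 could do so. The alternatives on the intensity filter and the fold threshold and the trended robust fit moved only the adjusted p and left each change as it was. The value of Abca3 became -0.0031 after another quantile normalization, -0.0011 with median centring, -0.0037 with cyclic loess, -0.30 with the probe set of lowest p, -0.34 with the mean of probe sets and -0.017 with array weights. That of Abcb9 became -0.00011 with median centring and -0.016 with both arrays left out, that of Abcb8 0.0035 with cyclic loess, 0.041 with array weights and 0.14 with both arrays left out, and that of Abcb6 -0.021 and -0.0043 under the last of these. Abcd3 gave -0.18 with the probe set of lowest p and -0.041 with the mean, and without probe sets that bind several transcripts Abcc9 gave -0.090 and Abce1 0.16. With 1 array left out, changes ran from -0.038 to 0.040 for Abca3, from -0.16 to 0.21 for Abca7, from -0.0035 to 0.26 for Abcb4, from -0.048 to 0.11 for Abcb6, from -0.19 to 0.10 for Abcb8, from -0.016 to 0.030 for Abcb9, from -0.039 to 0.18 for Abcc2, from -0.0042 to 0.18 for Abcd3, from -0.076 to 0.00086 for Abce1, from -0.015 to 0.14 for Abcg3, from -0.061 to 0.16 for Abcg4 and from -0.024 to 0.22 for Abcg8.

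No paired analysis was possible because control and GHRH-KO replicates share no number. With 3 animals a group, an interval that includes 0 does not show that a gene stayed the same.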

Other observations

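Several ABC genes had more than 1 probe set. Of the 14 members with several tested, 9 had changes of 1 sign in all of them, and the 5 that did not were Abca3, Abcc5, Abcc9, Abcd3 and Abce1. Abce1, which had a change of -0.05 by its brightest probe set, had -0.45 by another (adjusted p = 0.230, limma) that read 5.65, 5.64 and 5.88 in the controls and 5.60, 5.18 and 5.05 in the GHRH-KO livers. A probe set of Abca3 read 9.36, 9.01 and 9.36 in the controls and 9.51, 6.73 and 9.29 in the GHRH-KO livers, so that its change of -0.73 rests on replicate 5.

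Abcg3, a rodent gene related to Abcg2, had a second probe set below the intensity filter, which read 4.24, 3.93 and 4.06 in the controls and 5.09, 4.70 and 4.61 in the GHRH-KO livers. The GHRH-KO values were all higher, but the 3 control values and 2 of the 3 GHRH-KO values lay at background, so no change is given, and the brighter probe set had a change of 0.05. The second probe set of Abcb1b, with values of 3.63 to 3.99 in all 6 arrays, lay at background and gave no reading on the change of that gene.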
